A study of Mus musculus with 11 samples.

Results

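The Fc receptor genes are 7 mouse genes for receptors of the constant part of antibodies, namely Fcgr1, Fcgr2b, Fcgr3, Fcgr4, Fcer1g, Fcer1a and Fcgrt. They were selected by gene symbol, and all 7 were found among the 45777 genes of the expression table. RNA of whole skin and whole small intestine of wild-type BALB/c mice was sequenced after daily application of a cream to the shaved skin. Every mouse was 8 to 10 weeks old and received 62.5 mg of cream per day, which was Vaseline in the control groups and contained 5% imiquimod (IMQ), which activates TLR7 in endosomes, in the IMQ groups. The sample annotation gives 5 to 8 days of application to the back and the right ear, whereas the study's methods name the back alone, and the days of each mouse are not given. Skin was sequenced from 3 control (replicates 1 to 3) and 3 IMQ samples (replicates 4 to 6), and small intestine from 3 control (replicates 7 to 9) and 2 IMQ samples (replicates 10 and 11). The annotation allows mice of either sex and does not say which tissues came from the same mouse. Vaseline differs from the base of the IMQ cream, so IMQ and its cream base cannot be told apart.

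Receptors for IgG (Fcγ receptors) sit mainly on myeloid cells and bind antibody-coated particles or immune complexes. Fcgr1, Fcgr3 and Fcgr4 encode the ligand-binding chains of activating receptors, of which the Fcgr1 product binds IgG2a with high affinity and the Fcgr4 product binds IgG2a, IgG2c and IgG2b. These chains need the common γ chain, encoded by Fcer1g, which carries the activating motif (ITAM) that recruits Syk family kinases. Fcgr2b encodes the inhibitory receptor, whose own motif (ITIM) recruits phosphatases. Fcer1a encodes the IgE-binding chain of the high-affinity IgE receptor of mast cells and basophils, which also needs the γ chain. Fcgrt encodes the heavy chain of the neonatal receptor FcRn, which pairs with β2-microglobulin and returns IgG from endosomes to the blood or carries it across epithelium.

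Of the 7 genes, 5 lie on chromosome 1 in the GRCm38 (mm10) assembly. Fcgr2b (chr1:170960558-170976071, minus strand), Fcgr4 (chr1:171018926-171029761, plus strand) and Fcgr3 (chr1:171051169-171065915, minus strand) are neighbours separated by 42.9 and 21.4 kb. Fcer1g (chr1:171229572-171234349, minus strand) starts 163.7 kb beyond Fcgr3, and Fcer1a (chr1:173221269-173227232, minus strand) lies a further 1986.9 kb away. Fcgr1 is on chromosome 3 (chr3:96282909-96293969, minus strand) and Fcgrt on chromosome 7 (chr7:45092993-45103822, minus strand). Fcgr2b and Fcgr3 share 83.9% of their aligned coding bases, whereas Fcgr4 shares 63.5% with Fcgr2b and 63.1% with Fcgr3. The longest identical coding stretch of Fcgr2b and Fcgr3 has 129 bases and runs across 2 exons in each gene (Fcgr2b chr1:170966674-170968081 and Fcgr3 chr1:171054167-171057792, both minus strand). It is shown because a 100-base read that falls inside it cannot be assigned to either gene by its sequence alone:
Fcgr2b and Fcgr3, shared coding stretch: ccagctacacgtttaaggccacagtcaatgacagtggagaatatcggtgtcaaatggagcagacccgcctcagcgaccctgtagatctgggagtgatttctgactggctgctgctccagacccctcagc
Windows of 100 bases common to both made up 4.78% of the coding windows of Fcgr2b and 6.27% of those of Fcgr3. No 100-base coding window of Fcgr4 or Fcgr1 occurred in another Fcγ receptor gene. How multi-mapping reads and strand were treated is not given in the sources used here, so values of Fcgr2b and Fcgr3 are uncertain to that extent. Reads of the gene models Gm38204 and Gm45669, which overlap Fcgr2b and Fcgrt on the opposite strand, and of Mir6546 and Gm26110, which lie within Fcgr3 and Fcgr4, could also have been counted for either partner.

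The start regions of the 4 genes that carry the activating IgG receptors and their γ chain are shown because these genes were higher after IMQ in both tissues. Each stretch is the 150 bases before the annotated start in RefSeq (GRCm38.p6), in the direction of transcription, from the reference strain and not from BALB/c. For Fcgr3 the upstream of 2 listed starts was used, and both lie inside the span of the gene given above, so that the window is not at its outer end. Capitals mark the letters GAGGAA, a core recognized by the myeloid factor PU.1, read on either strand (TTCCTC), and the letters TTCNNNGAA, the form of STAT sites:
Fcgr4 (chr1:171018776-171018925, plus strand): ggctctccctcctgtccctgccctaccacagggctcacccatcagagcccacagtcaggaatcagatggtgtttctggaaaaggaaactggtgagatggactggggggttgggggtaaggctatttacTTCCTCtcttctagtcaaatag
Fcer1g (chr1:171234350-171234499, minus strand): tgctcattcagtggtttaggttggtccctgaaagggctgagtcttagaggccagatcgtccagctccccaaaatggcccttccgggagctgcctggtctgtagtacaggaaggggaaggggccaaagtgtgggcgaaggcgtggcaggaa
Fcgr1 (chr3:96293970-96294119, minus strand): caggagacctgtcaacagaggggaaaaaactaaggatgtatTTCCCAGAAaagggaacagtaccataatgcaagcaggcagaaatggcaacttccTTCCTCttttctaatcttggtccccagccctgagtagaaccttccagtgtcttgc
Fcgr3 (chr1:171059404-171059553, minus strand): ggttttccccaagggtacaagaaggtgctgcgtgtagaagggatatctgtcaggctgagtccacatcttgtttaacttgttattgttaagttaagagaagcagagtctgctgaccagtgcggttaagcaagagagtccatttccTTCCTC
In the 250 bases searched before each start, GAGGAA was found in Fcgr4, Fcgr3, Fcgr1 and Fcer1a, beginning 22, 6, 55 and 216 bases upstream. TTCNNNGAA was found in Fcgr1, beginning 109 bases upstream. Neither was found in the windows of Fcgr2b, Fcer1g and Fcgrt. GAGGAA occurs in 23.3% and TTCNNNGAA in 7.02% of the 32851 promoters of the same length, and binding of a factor was not measured.

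The libraries held 44995414 to 58526384 counts, so that the rarest member, Fcer1a, had 14 to 211 counts per library and each other member at least 111. Summed FPKM (a measure of the authors that corrects for transcript length and library size) of 6 keratinocyte genes was 5001 to 13639 in skin and at most 1.4 in small intestine. Summed FPKM of 7 enterocyte genes was 10897 to 26141 in small intestine and at most 5.7 in 5 of the 6 skin libraries. Control replicate 2 of the skin stood apart with 233, a median of 1.43% of the control small intestine level over these genes. At that share, RNA of control small intestine would account for 1.69% of the Fcgr4 level of this library and for at most 5.15% of any member. These shares hold only for control gut as the source. The mean FPKM of Fcgr4 was 238 in the IMQ-treated small intestine, against 5.92 in the control one. A share from IMQ-treated gut would thus be larger for Fcgr4, and which gut tissue the transcripts came from was not tested. Control replicate 2 of the skin also had a summed FPKM of 1.4 for 6 hair follicle genes, against 519 and 862 in the other skin controls. The IMQ-treated skin libraries had 1.91, 1.83 and 1.51, so control replicate 2 lay near the treated skin in these genes. Hair follicle transcripts thus differed between the other skin controls and all IMQ-treated skin. The part of this difference in the skin fold changes was not tested. Control replicate 7 of the small intestine had more mast cell transcripts and control replicate 9 more B cell transcripts than the others.

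The activating IgG receptor genes and the γ chain were higher after IMQ in both tissues (quasi-likelihood test of edgeR, Benjamini-Hochberg adjusted p under 0.05 over all tested genes). In the skin, 5 of the 7 genes were called higher (Fcgr1, Fcgr3, Fcgr4, Fcer1g and Fcer1a) and 0 lower, whereas 4.05% of the 20512 genes tested were called higher. In the small intestine, 5 of the 7 were called higher (Fcgr1, Fcgr3, Fcgr4, Fcer1g and Fcgrt) and 0 lower, against 2.77% of 19965 genes. These shares are also the background for edgeR counts of higher genes in the other gene lists below, IMQ against control with all libraries. The median log2 fold change of the 7 genes was 1.65 in skin and 1.03 in small intestine, beside -0.01 and -0.02 over all genes tested. Every IMQ library lay above every control library for 6 of the 7 genes in the skin (all but Fcgrt) and for 6 of the 7 in the small intestine (all but Fcer1a), and of all genes tested 15.1% did so in skin and 15.1% in small intestine. In whole tissue, more cells of a type and more RNA per cell cannot be told apart. Nothing states that the libraries of a group came from separate mice, so p-values measure the spread between these samples.

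**Figure D1:**
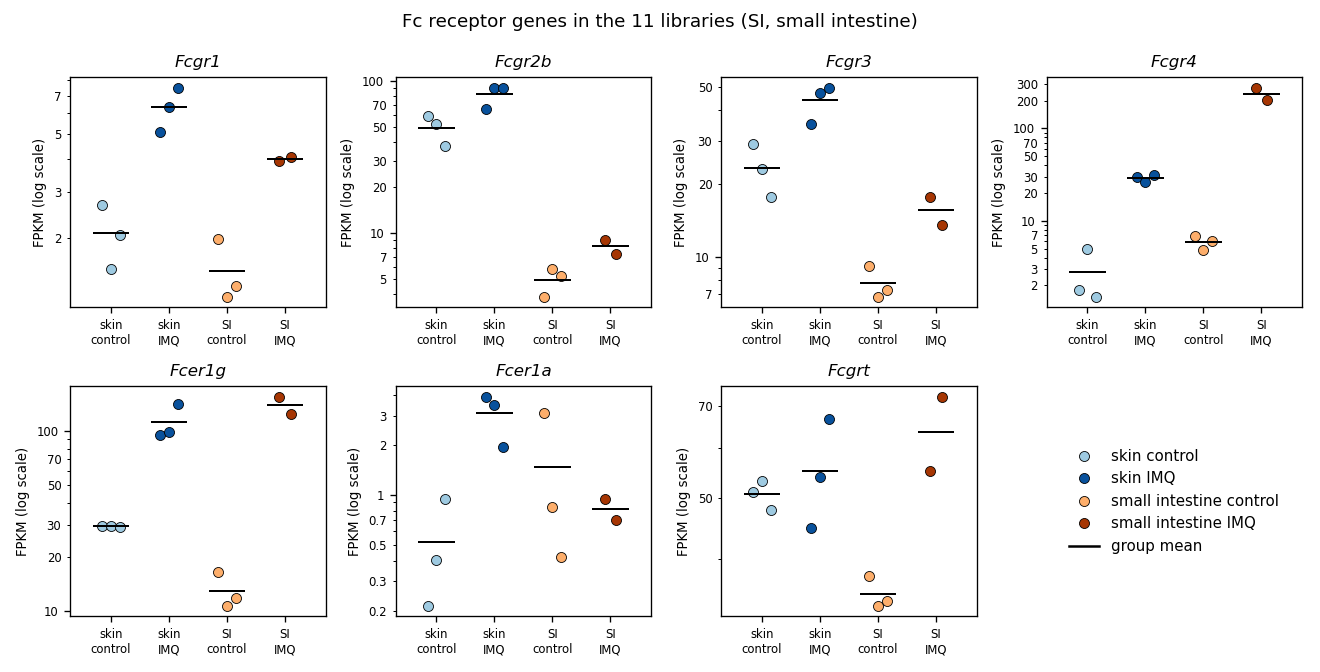
FPKM (log axis) of the 7 Fc receptor genes in each of the 11 libraries, with the group mean as a line. Fcgr4 lay at 201 and 276 in the IMQ-treated small intestine, above all 9 other libraries, which reached at most 31.7.

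Fcgr4, the low- to intermediate-affinity activating receptor of monocytes, macrophages and neutrophils, showed the largest response of the 7 genes in both tissues. Normalized counts (counts adjusted to a common library size within the tissue) were 118, 351 and 96.8 in control skin and 2118, 1818 and 2119.7 in IMQ-treated skin. The highest skin control was replicate 2, and the lowest IMQ library was still 5.18 times above it. Its log2 fold change in skin was 3.43 (SE 0.50, edgeR adjusted p = 0.0131). Small intestine samples had 507, 331 and 454 normalized counts in control mice and 19784 and 15524 in IMQ-treated mice. The mean was 41.0-fold higher after IMQ, and the lowest IMQ library exceeded the highest control 30.6-fold. The log2 fold change of 5.36 (SE 0.23, edgeR adjusted p = 1.37e-04) ranked 8 among 15037 genes that averaged 50 or more normalized counts. By FPKM, Fcgr4 moved from ranks 7102 to 8658 of all genes in the control small intestine to ranks 208 and 321 after IMQ. In skin its log2 fold change ranked 83 among 15767 such genes.

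Fcer1g, the shared signalling chain, was called higher in both tissues, as were Fcgr1, Fcgr3 and Fcgr4. Fcer1g had normalized counts of 1022, 1099 and 989 in control skin and 3573, 3577 and 4985 in IMQ-treated skin. The controls differed little from each other, and the lowest IMQ library was 3.25-fold above the highest of them. The log2 fold change in skin was 1.96 (SE 0.16, edgeR adjusted p = 0.00262). In small intestine, it had normalized counts of 636, 382 and 467 in control mice and 5865 and 5087 in IMQ-treated mice, an 11.1-fold difference of the means. The log2 fold change there was 3.47 (SE 0.22, edgeR adjusted p = 3.79e-04), ranking 45 among the 15037 genes. The call for Fcer1g held without each library in turn in both tissues.

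Fcgr1, the high-affinity IgG receptor of monocytes and macrophages, was low per transcript length but higher after IMQ in both tissues. It had normalized counts of 362, 222 and 274 in control skin and 752, 904 and 1040.2 in IMQ-treated skin. Those of the small intestine were 302, 168 and 204 in control mice and 583 and 655 in IMQ-treated mice. The groups did not overlap in either tissue. On the log2 scale the fold change was 1.65 (SE 0.23, edgeR adjusted p = 0.0114) in skin and 1.46 (SE 0.27, edgeR adjusted p = 0.0348) in small intestine.

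Fcgr3, the low-affinity activating receptor found on most myeloid cells and natural killer cells, was higher by about the same factor in the tissues. Skin libraries had 2066, 1794 and 1226 normalized counts of Fcgr3 in control mice and 2714, 3496 and 3587 in IMQ-treated mice. Small intestine libraries had 730.0, 502 and 596 in control mice and 1358 and 1125 in IMQ-treated mice. No IMQ library fell within the range of its controls. Its log2 fold change was 0.95 (SE 0.21, edgeR adjusted p = 0.0482) in skin and 1.03 (SE 0.20, edgeR adjusted p = 0.0393) in small intestine.

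Fcgr2b, the inhibitory receptor of B cells and myeloid cells, did not pass the edgeR test in either tissue. Its fold changes lay near those of Fcgr3 (0.95 in skin and 1.03 in small intestine), and a difference between the genes was not tested. Its normalized counts were 4416, 4199 and 2779 in control skin and 5366, 7049 and 6929 in IMQ-treated skin. The small intestine had 317, 455 and 456 in control mice and 762 and 671 in IMQ-treated mice. All IMQ libraries lay above the controls, by a smaller margin than for the activating genes. The log2 fold change was 0.76 (SE 0.21, edgeR adjusted p = 0.0771) in skin and 0.81 (SE 0.21, edgeR adjusted p = 0.128) in small intestine. DESeq2 called it in both tissues, with adjusted p = 0.0137 in skin and 0.0136 in small intestine at like fold changes.

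Fcer1a, the IgE-binding chain, was higher in IMQ-treated skin and did not pass the test in the small intestine. Its normalized counts were 12.7, 24.0 and 50.6 in control skin and 231, 198 and 108 in IMQ-treated skin, a log2 fold change of 2.61 (SE 0.54, edgeR adjusted p = 0.0379). In the gut they were 189, 48.4 and 26.8 in control mice and 55.4 and 45.5 in IMQ-treated mice. The IMQ libraries there lay within the range of the controls, which was set by control replicate 7. There the log2 fold change was -0.79 (SE 0.78, edgeR adjusted p = 0.787), and it was 0.43 without control replicate 7 (adjusted p = 0.725).

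Fcgrt, the heavy chain of FcRn, was the most even of the 7 genes across the 4 groups. Its normalized counts were 4655, 5203 and 4311 in control skin and 4469.5, 5176 and 6212 in IMQ-treated skin, which overlapped, with a log2 fold change of 0.16 (SE 0.15, edgeR adjusted p = 0.573). Normalized counts of the small intestine were 3845, 3203 and 3607 in control mice and 5494 and 7791 in IMQ-treated mice, without overlap. The log2 fold change there was 0.90 (SE 0.18, edgeR adjusted p = 0.0432). B2m, its partner chain, had log2 fold changes of -0.07 (adjusted p = 0.93) in skin and 0.02 (adjusted p = 0.99) in small intestine in the same test.

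**Figure D2:**
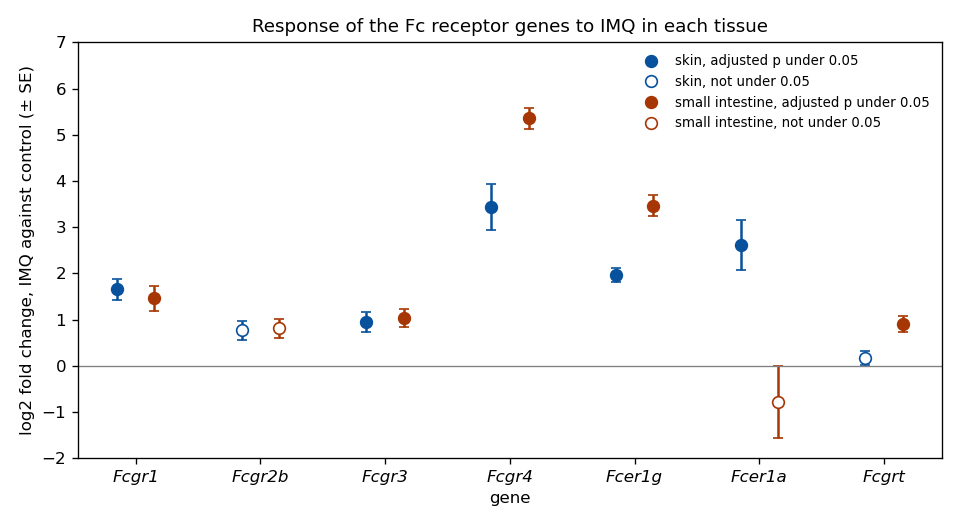
Log2 fold change of each Fc receptor gene, IMQ against control, in skin and small intestine, with its standard error as bars. Filled points had an edgeR adjusted p under 0.05. Fcgr4 (5.36) and Fcer1g (3.47) stood above the other members in the small intestine.

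Several of these calls rested on all libraries being present. Without a single skin library, 1 to 4 of the 7 genes were called, lowest without IMQ replicate 5 (Fcer1g alone). Calls also fell over the whole table. Without IMQ replicate 5, 219 of 20743 genes were called higher in skin, against 830 of 20512 with all libraries. Fcgr3 was lost without each of the 6 skin libraries (adjusted p = 0.0604 to 0.174), Fcer1a without each but control replicate 3, Fcgr4 without control replicate 1 (0.0576) or IMQ replicate 5 (0.0550), and Fcgr1 without IMQ replicate 5 (0.0606). Without a single small intestine library, 2 to 5 were called, with Fcgr4 and Fcer1g among them each time. Fcgr1 and Fcgr3 were lost there without each library but control replicate 7, and Fcgrt without control replicate 8 or 9 or IMQ replicate 11. Without small intestine control replicate 8 or 9, 378 of 20196 and 361 of 20168 genes were called higher there, against 554 of 19965 with all libraries. No member that was called changed direction in these refits.

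An interaction term in 1 model of all 11 libraries tested whether the response depended on the tissue. Fcer1g was called, with a response larger by 1.51 log2 units in the small intestine (SE 0.29, edgeR adjusted p = 0.0222), as 1 of the 7 genes, against 2.55% of the 18108 genes tested. The Fcer1g difference kept its direction without each library in turn, between 1.35 and 1.74, but passed the threshold in 5 of the 11 refits. It was lost without skin control replicate 1, skin IMQ replicate 4 or 5, small intestine control replicate 9 or either IMQ-treated small intestine (adjusted p = 0.0521 to 0.104). Fcgr4 had the larger difference among the IgG receptors, 1.94 (SE 0.59), and did not pass (edgeR adjusted p = 0.120). This difference was 1.11 without skin control replicate 2 and 2.28 without skin control replicate 3, and it passed the threshold in both cases (adjusted p = 0.0425 and 0.0451). DESeq2 called Fcgr4 as well (1.95, adjusted p = 0.0227). Fcer1a differed in the opposite direction, -3.40 (SE 1.04, edgeR adjusted p = 0.124), and DESeq2 called it (-3.42, adjusted p = 0.0105). Fcgrt had a difference of 0.75 (SE 0.25, edgeR adjusted p = 0.159). The differences of Fcgr1, Fcgr2b and Fcgr3 were -0.19 (SE 0.37), 0.05 (SE 0.31) and 0.09 (SE 0.31), each smaller than its standard error.

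The make-up of the Fcγ receptor transcripts differed between tissues and shifted after IMQ. In control skin, Fcgr2b made up 63.6% to 64.0% of the summed FPKM of Fcgr1, Fcgr2b, Fcgr3 and Fcgr4, and Fcgr4 made up 1.94% to 6.13%. In IMQ-treated skin, the share of Fcgr2b was 48.4% to 52.8% and that of Fcgr4 15.6% to 21.9%. The share of Fcgr3 was 28.1% to 31.6% in control and 25.9% to 27.9% in IMQ-treated skin. The shares of Fcgr2b and Fcgr3 thus fell as that of Fcgr4 rose, although the mean FPKM of both was itself higher after IMQ. In the control small intestine, Fcgr3 had the largest share, 36.6% to 42.1%, followed by Fcgr4 with 26.0% to 31.5%. In the IMQ-treated small intestine, Fcgr4 made up 90.0% and 88.9%, and Fcgr2b 2.95% and 3.25%. The FPKM of the 3 activating binding chains together was 0.563 to 0.573 times that of Fcgr2b in control skin and 0.894 to 1.07 times in IMQ-treated skin. The same ratio in small intestine was 2.22 to 4.75 in control mice and 32.9 and 29.8 in IMQ-treated mice. The ratio did not overlap between control and IMQ in either tissue. These shares follow from the values above and are given as a description.

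**Figure D3:**
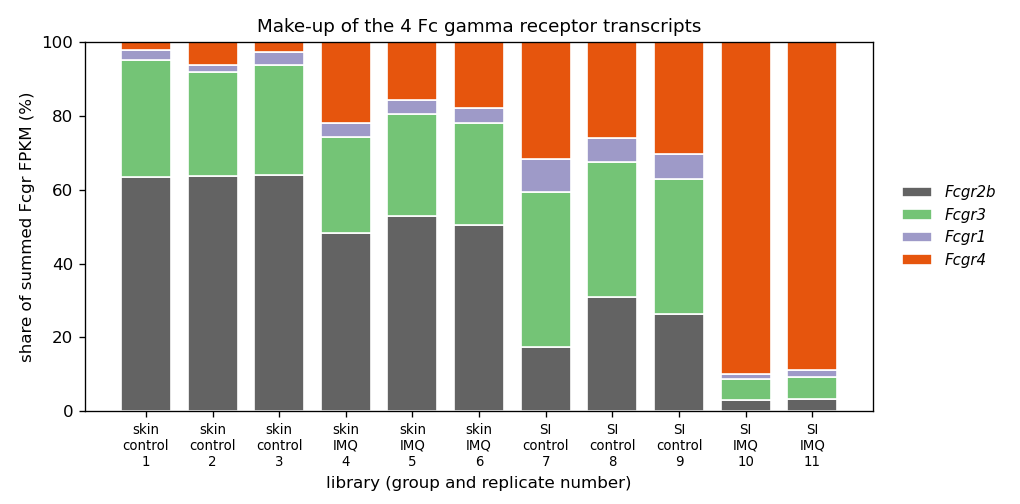
Share of Fcgr1, Fcgr2b, Fcgr3 and Fcgr4 in their summed FPKM, in percent, for each of the 11 libraries. Fcgr2b filled 63.6% to 64.0% in control skin, and Fcgr4 filled 90.0% and 88.9% in the IMQ-treated small intestine.

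Fcer1g was compared with the chains that need it. Its FPKM was 0.878 to 1.32 times the summed FPKM of Fcgr1, Fcgr3, Fcgr4 and Fcer1a in control skin and 1.18 to 1.56 times in IMQ-treated skin, and these ranges overlapped. In the control small intestine the ratio was 0.775 to 0.782, and in the IMQ-treated small intestine it was 0.521 and 0.570. The γ chain was thus lower relative to its binding chains in both IMQ-treated small intestines than in the controls.

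The control groups of the tissues differed for 5 of the 7 genes in the fit of all 11 libraries. Fcgr2b was higher in skin by 2.88 log2 units (edgeR adjusted p = 1.01e-06), Fcgr3 by 1.14 (8.21e-04) and Fcer1g by 0.73 (0.00773), 3 of 7 genes against 28.8% of all genes tested. Fcgr4 was higher in small intestine, with a log2 difference of skin from small intestine of -1.53 (edgeR adjusted p = 0.00819), as was Fcer1a with -1.92 (0.0359), 2 of 7 against 28.2%. So many genes differed between these tissues that the counts of members are near that background. The Fcer1a difference was -0.69 without small intestine control replicate 7 (adjusted p = 0.319), and the call was also lost without skin control replicate 1 or 2 (adjusted p = 0.116 and 0.0806). Fcgr4 was called without each library in turn, at -2.36 without skin control replicate 2. Fcgr1 (0.01) and Fcgrt (0.08) did not pass with adjusted p = 0.978 and 0.727. The tissue difference depends on the scaling, since the median of all genes moved from 0.01 to 0.15 with upper-quartile scaling and to 0.45 on log2(FPKM + 0.01). On the latter scale 8330 genes were called higher in skin and 3196 in small intestine, against 5210 and 5111 on the counts, and Fcgrt was called higher in skin (0.53, limma adjusted p = 0.00972), a difference near the shift of all genes.

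The order of the 4 groups by mean FPKM differed from gene to gene. Fcgr2b went from 81.9 in IMQ-treated skin over 49.4 in control skin and 8.19 in IMQ-treated small intestine to 4.94 in control small intestine, and no neighbours in this order overlapped. Fcgr3 had the same order, 44.0, 23.2, 15.5 and 7.77, with control skin and IMQ-treated small intestine almost touching at 17.56 and 17.54. Both genes had a higher mean in control skin than in the IMQ-treated gut. Fcgr1 followed 6.31 in IMQ-treated skin, 4.01 in IMQ-treated small intestine, 2.08 in control skin and 1.49 in control small intestine, of which the controls overlapped. Fcgr4 followed 238 in IMQ-treated small intestine, 29.2 in IMQ-treated skin, 5.92 in control small intestine and 2.76 in control skin, of which the controls overlapped through skin replicate 2. Fcer1g reached 140 in IMQ-treated small intestine and 112 in IMQ-treated skin, which overlapped, against 29.5 in control skin and 12.9 in control small intestine. Fcer1a was 3.11 in IMQ-treated skin, 1.46 in control small intestine, 0.820 in IMQ-treated small intestine and 0.520 in control skin, and each pair of neighbours overlapped. Fcgrt was 63.7 in IMQ-treated small intestine, 55.2 in IMQ-treated skin, 50.8 in control skin and 35.3 in control small intestine, of which the last did not overlap with the others.

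Some monocyte and macrophage markers were higher after IMQ as well. Of 10 monocyte and macrophage markers, 4 were called higher and 0 lower in each tissue, but 1 in skin without IMQ replicate 5. Their summed FPKM was 441 to 642 in control skin and 980 to 1327 in IMQ-treated skin. The sum was 246 to 327 in control small intestine and 675 and 727 after IMQ, and none of the 10 was at 0 in any group. Adgre1, which encodes the macrophage antigen F4/80, had log2 fold changes of 2.88 in skin (edgeR adjusted p = 0.0062) and 2.16 in small intestine (0.0023). Csf1r, the receptor that maintains macrophages, had 0.40 (0.33) and 0.38 (0.61). Cd68, a lysosomal protein of macrophages, had 0.57 (0.10) in skin and 2.54 (7.9e-04) in small intestine. The part of these markers in the changes of the Fc receptor genes was not tested.

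Set against the summed FPKM of these macrophage markers, Fcgr4 and Fcer1g were higher after IMQ in both tissues, without overlap, and Fcgrt was lower. Fcgr4 was 0.279% to 0.922% of that sum in control skin and 2.39% to 2.96% in IMQ-treated skin, and it was 1.98% to 2.23% in control and 29.7% and 38.0% in IMQ-treated small intestine. Fcer1g was 4.63% to 6.59% in control skin and 9.50% to 10.7% in IMQ-treated skin. In small intestine it was 4.33% to 5.03% in control and 21.4% and 18.5% in IMQ-treated mice. These ratios did not overlap between control and IMQ for either gene. Fcgr3 was 3.98% to 4.54% of the sum in control skin and 3.51% to 4.82% in IMQ-treated skin, which overlapped, and 2.70% to 2.81% and 2.0% to 2.41% in the small intestine, where it was lower after IMQ. Fcgr2b was 8.49% to 9.62% and 6.55% to 9.13% in skin, and 1.16% to 2.36% and 1.09% to 1.25% in small intestine, with overlap in both. Fcgr1 did not overlap in skin (0.281% to 0.463% and 0.508% to 0.647%) and overlapped in small intestine (0.481% to 0.606% and 0.540% to 0.605%). Fcgrt was 7.97% to 10.9% in control and 4.49% to 5.51% in IMQ-treated skin, and 11.5% to 13.7% in control and 7.58% to 10.7% in IMQ-treated small intestine. Fcer1a overlapped in skin (0.0332% to 0.213% and 0.147% to 0.390%) and did not in small intestine (0.155% to 0.957% in control and 0.104% to 0.129% after IMQ). The ratios carry no test, and 4 of the markers in the sum rose themselves.

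Neutrophil markers, which mark another carrier of Fcgr4, were called higher in skin, whereas 1 was called in the small intestine. In skin, 5 of the 5 tested of 8 were called higher (3 to 5 without a single library, with 3 without IMQ replicate 4 or 5), and the summed FPKM was 13.5 to 15.0 in control and 7035 to 8586 after IMQ. S100a8 and S100a9, which inflamed keratinocytes also express, carried this sum, with a mean FPKM of 3434.5 and 4300.1 in IMQ-treated skin (log2 fold change 10.16 and 9.46), and were named after their values were seen. Csf3r, Cxcr2 and Retnlg changed by 3.04, 2.91 and 2.0 (edgeR adjusted p = 7.7e-04, 0.021 and 0.042). Of 4 tested in the small intestine 1 was called, Csf3r, which encodes the G-CSF receptor (log2 fold change 3.21, edgeR adjusted p = 4.9e-04), and the summed FPKM was 7.15 to 8.10 in control and 14.8 and 15.6 in IMQ-treated mice. S100a9 had a log2 fold change of 2.24 in small intestine and did not pass (edgeR adjusted p = 0.16). Cxcr2 and Retnlg did not rise there, with -0.25 and -0.07 (edgeR adjusted p = 0.89 and 0.94). By flow cytometry, the paper reported more neutrophils in the small intestine after IMQ. Ly6g and Ngp were at 0 counts in both IMQ-treated small intestines, and Ngp also in every skin control. Ly6g is hardly counted in skin either, with at most 9 counts in an IMQ-treated library, so that it says little on neutrophils in these data. Of 6 dendritic and Langerhans cell markers, 2 of 5 tested were called higher in small intestine by edgeR (1 when any control library was left out). In skin edgeR called 0 of 6, where 0 had an unadjusted p under 0.05 and DESeq2 and limma-voom called 0. Their summed FPKM was 11.05 to 13.09 in control and 47.6 to 64.5 in IMQ-treated small intestine. Among them, Itgax, which encodes the integrin CD11c of dendritic cells and many macrophages, was called higher in small intestine (2.82, edgeR adjusted p = 3.8e-04) and not in skin (0.08, 0.92). Xcr1 of conventional dendritic cells, named after its values were seen, was called in small intestine (1.15, edgeR adjusted p = 0.046), while Flt3 and Zbtb46 were not called in either tissue. Of 6 eosinophil markers, 0 of the 2 tested in skin and 0 of the 4 tested in small intestine were called by edgeR, none had an unadjusted p under 0.05, and DESeq2 and limma-voom also called 0. Without skin control replicate 2, edgeR called 1 in skin. Their summed FPKM was at most 3.7 in any library. The part of these cells in the changes of the members was not tested.

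Most of the kinases and adaptors that act after activating Fc receptors were called higher as well. Of 16 such genes, all tested, 10 were called higher in skin and 12 in small intestine, and 0 lower in either. Of all genes tested, 4.05% were called higher in skin and 2.77% in small intestine. Their median log2 fold change was 1.24 in skin and 1.43 in small intestine, against -0.01 and -0.02 over all genes. Rac2, a GTPase of phagocytes, changed most in skin, by 2.37 (SE 0.21, edgeR adjusted p = 0.0032), followed by Fgr, a Src family kinase, by 1.90 (SE 0.23, 0.0075) and Lcp2, the adaptor SLP-76, by 1.86 (SE 0.24, 0.010). Fgr changed most in small intestine, by 3.47 (SE 0.16, edgeR adjusted p = 1.5e-04), followed by Lcp2 by 2.87 (SE 0.15, 2.2e-04) and Syk, the kinase that binds the phosphorylated γ chain, by 2.48 (SE 0.14, 2.7e-04). Among those that did not pass, Lat, an adaptor of T cells and mast cells named after its values were seen, had 1.43 in skin and -0.71 in small intestine (edgeR adjusted p = 0.064 and 0.37, interaction -2.13, 0.052). The normalized counts of Fgr went from 435, 347 and 425 to 4922 and 3998 in the small intestine. Fgr and Syk had a larger response in the small intestine by the interaction test, by 1.58 and 1.19 (edgeR adjusted p = 0.024 and 0.017). Of 11 refits that omitted 1 library each, Fgr passed in 4 and Syk in 8, with adjusted p up to 0.116 and 0.0722. Without a single library, 4 to 12 of the 16 genes were called in skin, with 4 without control replicate 1 and 6 without IMQ replicate 5, and 8 to 12 in small intestine.

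The inhibitory side was also measured. Of 6 genes, Inpp5d, the lipid phosphatase SHIP-1 that Fcgr2b recruits, and Ptpn6, the phosphatase SHP-1, were called higher in skin by 1.21 and 1.18 (edgeR adjusted p = 0.038 and 0.026). Both were also called higher in small intestine, by 1.47 and 1.86 (edgeR adjusted p = 0.0052 and 0.0016), together with the adaptors Dok1 (1.06, 0.031) and Dok2 (1.19, 0.038). Inppl1 and Ptpn11, which are expressed in most tissues, lay between -0.17 and 0.14 in log2 fold change. The skin count of 2 was 0 without control replicate 1 or any IMQ replicate, and the small intestine count of 4 fell to 1 if IMQ replicate 11 was left out and to 2 if IMQ replicate 10 or control replicate 8 or 9 was.

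**Figure D4:**
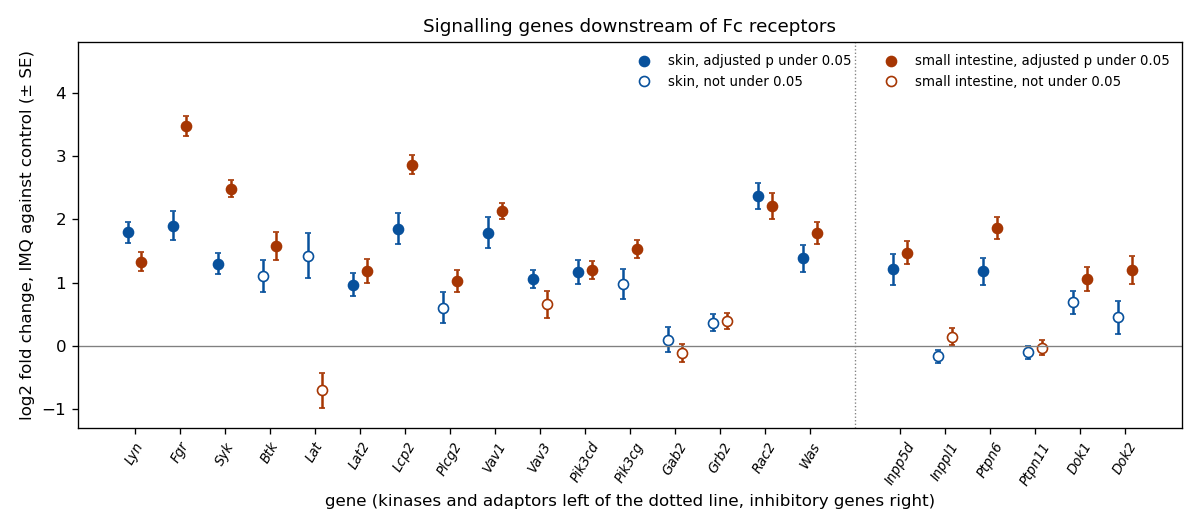
Log2 fold change, IMQ against control, of 16 kinases and adaptors and 6 inhibitory genes in skin and small intestine, with standard errors as bars. Filled points had an edgeR adjusted p under 0.05, and no filled point lies below 0. Fgr (3.47) and Lcp2 (2.87) were highest in the small intestine.

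The γ chain also serves receptors other than those for antibodies. Of 9 such receptors, 4 of 8 tested were called higher in skin and 2 of 4 tested in small intestine, against 4.05% and 2.77% of all genes. Clec4e, the receptor Mincle, changed by 3.81 in skin (SE 0.39, edgeR adjusted p = 0.0044), Cd300ld by 3.60 (SE 0.20, 7.7e-04) and Clec4d by 3.24 (SE 0.34, 0.0050). Cd300ld changed in small intestine by 2.67 (SE 0.22, edgeR adjusted p = 8.6e-04) and Pira2, a paired immunoglobulin-like receptor, by 2.1 (SE 0.19, 0.0012). Clec4n, the receptor Dectin-2, named after its values were seen, differed between the tissues by -2.18 in the interaction test (edgeR adjusted p = 0.013), which was lost without small intestine IMQ replicate 10 (0.05001) or 11 (0.0715). Its normalized counts were 719, 750 and 700 in control skin and 954, 1171 and 1473 in IMQ-treated skin, and 430, 232 and 333 in control and 139 and 102 in IMQ-treated small intestine, where both IMQ libraries lay below their controls. Among the sister adaptors, Tyrobp, which encodes DAP12, was called higher by 1.53 in skin (edgeR adjusted p = 0.0043) and 2.0 in small intestine (0.0025), whereas Hcst and Cd247 were not called in either.

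Of the 12 other Fc receptor and Fc receptor-like genes, 1 of 8 tested was called higher in skin and 2 of 10 in small intestine, and 0 lower. Without control replicate 2, 2 were called higher and 1 lower in skin. Fcrls, a receptor-like gene of mouse macrophages and microglia, had normalized counts of 1335, 1102 and 771 in control skin and 7099.9, 4637 and 5708 in IMQ-treated skin (log2 fold change 2.44, edgeR adjusted p = 0.0044). Its counts in small intestine went from 36.9, 37.3 and 31.4 to 741 and 915 (4.55, edgeR adjusted p = 1.8e-04), and the interaction was called (2.12, adjusted p = 0.010), though not without small intestine IMQ replicate 11 (0.0505). Fcrlb, named after its values were seen, was called in small intestine (2.56, edgeR adjusted p = 0.0078) at 6 to 7 normalized counts in control and 43 and 33 in IMQ-treated mice. Fcrl5, a receptor-like gene of B cells and plasma cells also named after its values were seen, was not tested, because several libraries had no count. It had 0, 31 and 0 counts in control skin and 982, 532 and 515 in IMQ-treated skin, and 0, 0 and 5 in control and 5293 and 3017 in IMQ-treated small intestine. Of 6 B cell markers, 1 of 2 tested was called in skin, Cd79b, a chain of the B cell receptor named after its values were seen (3.42, edgeR adjusted p = 0.0085), and the summed FPKM was 0.358 to 0.949 in control and 4.69 to 5.25 in IMQ-treated skin. Of the same 6, 0 were called in small intestine by edgeR (1 had an unadjusted p under 0.05, and DESeq2 and limma-voom each called 1), and their summed FPKM there was 11.7 to 21.9 in control and 18.7 and 15.3 in IMQ-treated small intestine.

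**Figure D5:**
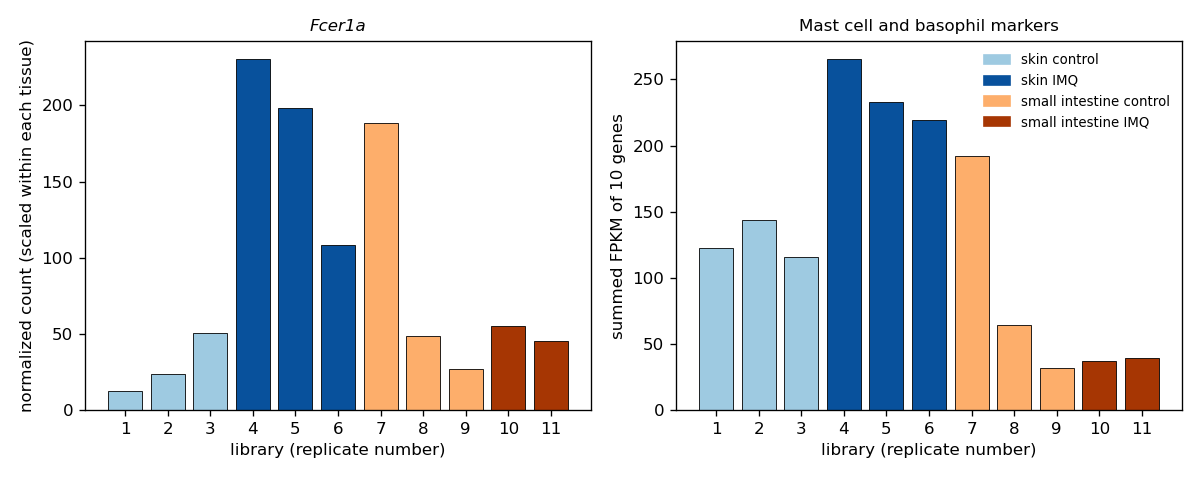
Normalized count of Fcer1a (left) and summed FPKM of 10 mast cell and basophil markers (right) in each library, bars starting at 0. Within the skin both were highest in the IMQ-treated libraries 4 to 6, and within the small intestine in control library 7.

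Mast cell and basophil markers and Fcer1a were both higher in IMQ-treated than in control skin, and both were highest in control replicate 7 of the small intestine. Among the skin controls 1 to 3 their order differed, with 12.7, 24.0 and 50.6 normalized counts of Fcer1a beside a summed marker FPKM of 123, 143 and 116. In skin, 6 of 8 tested of 10 markers were called higher, but 1 without control replicate 1 or IMQ replicate 5 and 3 without IMQ replicate 4. Their summed FPKM was 116 to 143 in control and 219 to 266 in IMQ-treated mice. Cma1, mast cell chymase, and Tpsb2, a tryptase, changed by 1.01 and 1.06 (edgeR adjusted p = 0.011 and 0.034), and Cpa3, the mast cell carboxypeptidase, by 0.86 (0.084). Named after their values were seen, Mcpt8, a basophil protease, changed by 3.76 (0.045), Tpsab1, another tryptase, by 3.04 (0.012) and Hdc, the enzyme that makes histamine, by 2.60 (0.010), beside 2.61 for Fcer1a. In the small intestine, 0 of 8 tested were called by edgeR, 0 had an unadjusted p under 0.05, and DESeq2 and limma-voom called 0. The summed FPKM there was 192, 64.4 and 32.0 in control replicates 7, 8 and 9 and 37.5 and 39.2 in IMQ-treated mice. Control replicate 7 was thus high in these markers as in Fcer1a. Between the control tissues the markers and Fcer1a went opposite ways. There, 6 of 6 tested markers were called higher in skin, against 28.8% of all genes tested, whereas Fcer1a was called higher in small intestine. Ms4a2, the β chain of the IgE receptor, named after its values were seen, had normalized counts of 147, 306 and 149 in control and 357, 370.2 and 344 in IMQ-treated skin and did not pass (0.83, edgeR adjusted p = 0.18). The part of mast cells or basophils in the Fcer1a values was not tested.

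Heavy chain constant transcripts of antibodies were measured, not the antibody proteins that the receptors bind. The receptors described above bind IgG or IgE, whereas Ighm and Igha encode chains of IgM and IgA. In the small intestine, 2 of 6 heavy chain constant genes tested were called higher by edgeR (1 if IMQ replicate 10 was left out), and in skin 0 of 4. In skin, 3 of the 4 had an unadjusted p under 0.05, DESeq2 called 1 and limma-voom 0, and edgeR called 2 without control replicate 2. The gene listed as Ighg2c, whose product is a ligand of Fcgr4, had normalized counts of 49.9, 34.3 and 103 in control and 765 and 814 in IMQ-treated small intestine (log2 fold change 3.65, edgeR adjusted p = 0.0040). BALB/c mice carry the allelic form Ighg2a, and which form was counted there was not tested. Ighm went from 1324, 1248 and 2391 to 7706 and 6978 (2.15, edgeR adjusted p = 0.0071), and its response was larger than in skin (interaction 1.62, adjusted p = 0.039), a call kept in 3 of 11 refits without a single library (adjusted p up to 0.140). Ighg2b (1.08), Ighg3 (0.94) and Ighg1 (-0.23) were not called there, with edgeR adjusted p = 0.47, 0.24 and 0.84. Igha, the most abundant of them in the gut, was not called either (-0.36, edgeR adjusted p = 0.83). In skin, Ighg2c was at 0 in every control library and at 8, 20 and 28 counts after IMQ.

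The genes most like each member over the 11 libraries were found by the root mean square difference of log2(normalized count + 1) after centring each gene, among 18108 genes with a count in every library. Fcgr3 had the closest neighbour, Lyl1, at 0.12 log2 units, and Fcgrt had Nfkbie at 0.14 and Fcgr2b had Ccr2 at 0.19. Fcgr1 was nearest to Ncf4, Hk3 and Tyrobp (0.24 to 0.26), and Fcer1g to Lrrc25, Pld4 and Ms4a4c (0.28 to 0.31). Fcgr4 and Fcer1a lay farther from their nearest genes, Siglece at 0.73 and Smim3 at 0.70. The measure is not scaled by how much a gene varies, so genes with large changes or few counts tend to lie far from others. Between members, Fcgr1 and Fcgr3 were the nearest pair at 0.59, while the nearest member to Fcgr4 was Fcer1g at 1.54. The measure describes these 11 libraries, which share tissue and treatment, and carries no test.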

How the data were processed

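RNA of whole skin and small intestine of mice was sequenced from TruSeq stranded mRNA libraries as 100-bp paired-end reads. Per the study's methods and the submitters' processing notes (bcl2fastq 2.20.0, Trimmomatic), the authors trimmed the reads, aligned them to mm10 with HISAT2 2.1.0 and assembled them with StringTie 2.1.3b. They deposited 1 table of 45777 genes with whole-number read counts that were not normalized. The same deposited table holds the FPKM of each gene, which the authors scaled by transcript length and library size. The TPM that the authors also deposited were not tested, since they keep no depth. The tool that turned the StringTie output into counts, its use of strand and its handling of reads that match several genes are not given in the sources used here. All 11 libraries were mapped to a tissue and treatment by their labels. No count was found in any library for 14694 genes.

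Counts were tested with edgeR 4.0.16 in R 4.3.3 (quasi-likelihood, relative log expression). Only genes counted at least once (minimum 1) across every fitted library entered, and Benjamini-Hochberg adjustment ran over all of them with a threshold of 0.05. IMQ was compared with control within each tissue. The interaction of tissue and treatment and the comparison of the control groups came from 1 fit of all 11 libraries. The standard error is the log2 fold change divided by the square root of F. Levels are compared between genes by FPKM, and between tissues by FPKM and, for the control groups, also by the test on counts. Other settings tried were 2 other normalizations (TMM, upper quartile), DESeq2 1.42.0, limma-voom (limma 3.58.1), filterByExpr or no filter in place of the filter on counts, limma on log2 FPKM after adding 0.01 or 1, a joint fit of the 11 libraries for both tissues, and leaving out every library in turn. The study added 1 to each count and used DESeq2, which here was run on the counts as deposited. The code for the fits was tested on simulated data. At these totals, 44995414 to 58526384 counts, counting error matters for Fcer1a and the genes of few counts, while the spread between libraries limits the others.

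The 7 genes, the gene lists and the tests were chosen with earlier results of these data known. Named beside the 7 were, per tissue, up to 3 genes of each pathway list with the largest change among those called at 50 or more normalized counts on average, every gene of lists of 8 or fewer, the first 3 genes of each marker list and markers at 0 in a whole group, and the 3 genes most alike to each member. Genes named after their values were seen are marked as such. Positions and promoters are from RefSeq (GRCm38.p6), in which 45679 genes were matched by Entrez identifier, and coding sequences and overlapping genes from GENCODE on the same assembly. Protein sequences were not used here. From the list of kinases and adaptors, 1 gene is not reported here and is left out of its counts.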

Additional observations from a re-analysis of the deposited data

Results flagged for a closer look

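The response of Fcer1g to IMQ differed between the tissues by the test of the difference itself. Its log2 fold change was 1.96 in skin and 3.47 in small intestine, a difference of 1.51 (edgeR's interaction test, adjusted p = 0.0222), with every IMQ library above every control library in both tissues. Without each library in turn the difference stayed between 1.35 and 1.74. The call was lost in several of these refits, such as without skin IMQ replicate 5 (edgeR adjusted p = 0.0710). The groups hold 2 or 3 libraries each, too few for a test of single libraries that stand apart.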

How the results depend on the processing

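Fcgr4 and Fcer1g were called higher in both tissues under each other normalization, test, filter and scale tried (9 per tissue), and in the small intestine also without each library in turn. In the small intestine, limma called 3 members with 0.01 added to the FPKM and 2 with 1 added, against 5 by edgeR. In the interaction test, DESeq2 called 3 members (Fcgr4, Fcer1g and Fcer1a) against 1 by edgeR. Without a single library, the number of members called was 1 to 4 in skin, 2 to 5 in small intestine and 0 to 2 for the interaction. The sign turned only for values that were not called. The interaction of Fcgr2b was 0.05, -0.0023 with upper-quartile normalization, -0.085 with limma on FPKM with 1 added, and -0.096 to 0.25 without a single library. That of Fcgr3 was -0.058 to 0.29 and that of Fcgr1 -0.37 to 0.091 without a single library. Fcer1a in the small intestine ranged from -1.23 to 0.43. Between the control tissues, Fcgr1 was -0.0010 with the filterByExpr filter and -0.18 to 0.28 without a single library, and Fcgrt was -0.0195 to 0.16. The cause of these shifts was not tested. The number of genes called over the whole table was 1382 in skin by edgeR, 3030 by DESeq2, 894 by limma with 1 added to the FPKM and 258 to 2521 without a single library. In small intestine it was 588, 1206 by DESeq2 and 294 to 801 without a single library, and for the interaction 462, 1281 by DESeq2, 301 with no filter and 144 to 1072. Without skin control replicate 2, Fcgr1, Fcgr4 and Fcer1g were called in skin. A small intestine group of 2 reduced to 1 library was assumed to vary like the others. No paired analysis was possible because the labels number the libraries 1 to 11 without a shared number between groups. Depth limits Fcer1a, at 14 to 211 counts per library.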
